A study of Mus musculus with 18 samples.

Results

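Visceral white adipose tissue (WAT) of bezafibrate-treated diabetic mice was compared with that of untreated diabetic mice on 11 of the 18 arrays of the series, 1 array per mouse, across the 19938 genes that have a single symbol. Members were taken by their titles: 5 arrays of streptozotocin-injected mice given bezafibrate (STZ, BEZ) and 6 arrays of streptozotocin-injected mice on standard diet (STZ, SD). The 7 arrays of nondiabetic mice on standard diet (Con, SD) entered the fit to estimate the spread and served as a reference level. In group names SD stands for standard diet, and after a mean it stands for the standard deviation. All mice were wildtype C57BL/6N males of 5 to 6 months. Per the labels, streptozotocin was injected intraperitoneally at 65 mg/kg on 5 days at an age of 10 to 16 weeks, and the controls had citrate buffer alone. Bezafibrate was mixed into the chow at 0.25% or 0.5% from 2 weeks after streptozotocin for 8 weeks, and the labels do not say which mouse had which dose. The study's methods differ from the labels on both doses and on what the controls received, and the labels are followed here. Nondiabetic mice on bezafibrate were not analysed here, so the comparison covers the drug in diabetic mice only.

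Streptozotocin destroys the insulin-producing beta cells of the pancreas, and white fat that lacks insulin releases its stored lipid. Bezafibrate is a fibrate that activates all forms of the peroxisome proliferator-activated receptor (PPAR), nuclear receptors that bind fatty acids and switch on genes of fatty acid uptake, oxidation and storage. In white fat the gamma form drives fat cell differentiation, and the alpha form is best known from the liver.

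The tissue carried its markers, with differences between arrays. In treated mice the mean log2 signal of 23 white adipocyte genes was 11.84 to 12.14, close to the 11.29 to 12.11 of nondiabetic mice. Untreated diabetic mice spread from 9.72 to 12.12, and their replicates 2, 3, 4 and 6 lay below every array of both other groups. Genes of neighbouring organs stood out on some arrays. The mean of 21 pancreas genes was 13.28 on STZ, SD replicate 6 and 8.32 to 11.06 on STZ, BEZ replicates 1 to 4, compared with 5.65 to 6.01 on the other 13 arrays of the study. The mean of 21 liver genes was 10.06 on STZ, BEZ replicate 5 and 6.89 to 7.77 on the other 10 arrays of the comparison. Con, SD had 7.33 to 8.84 in these liver genes. Epididymis and testis genes reached 11.03 and 7.97 on STZ, SD replicates 3 and 4 (5.67 to 6.19 upon BEZ). In Con, SD they spanned 6.38 to 11.17. T, NK and B cell genes reached 7.85 on STZ, SD replicate 6. In whole tissue, fewer cells of a type and less RNA per cell cannot be told apart.

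**Figure D1:**
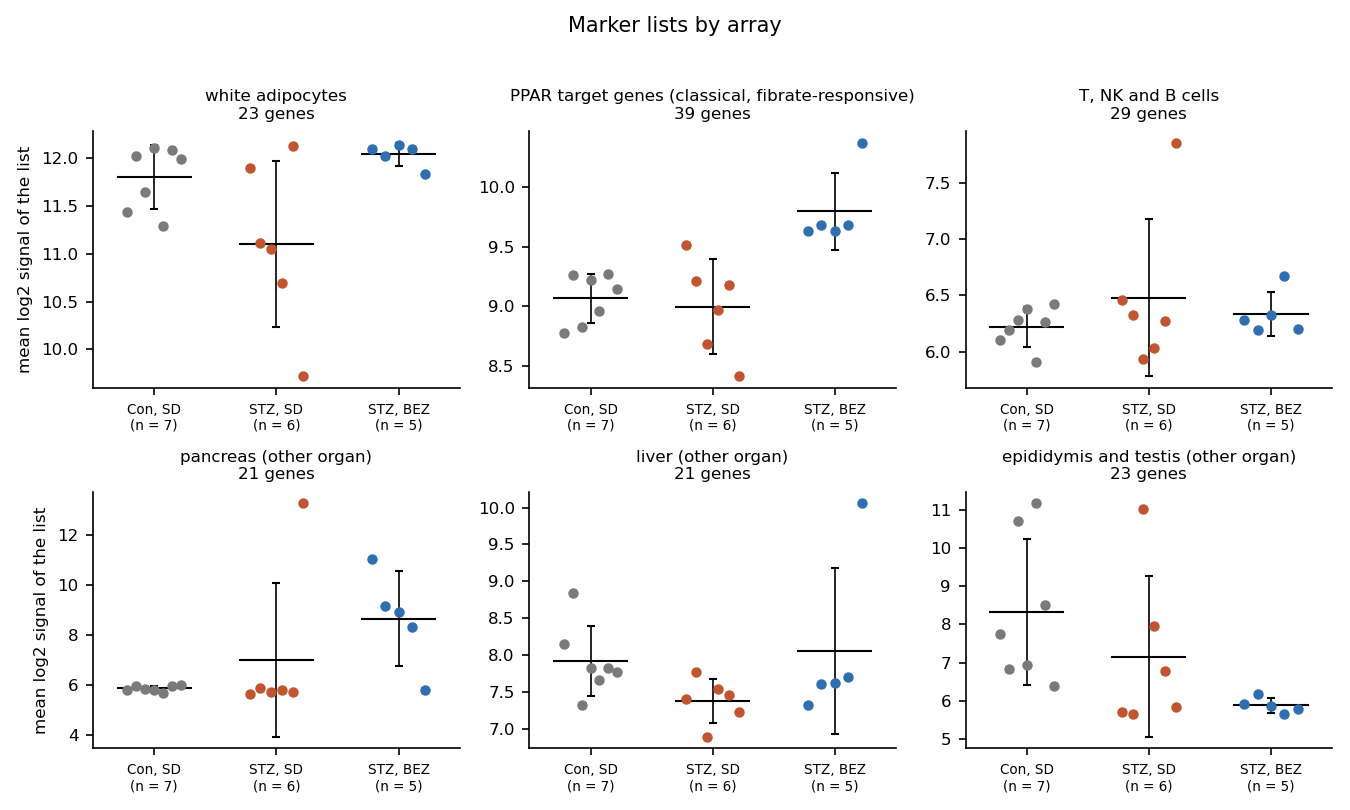
Mean log2 signal of 6 gene lists on every array (points, ordered by replicate number within a group), with the group mean (line) and SD (bar). Pancreas genes were high on STZ, SD replicate 6 and STZ, BEZ replicates 1 to 4, liver genes and PPAR targets were highest on STZ, BEZ replicate 5, and white adipocyte genes were spread out in STZ, SD.

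Upon BEZ 141 of 19938 genes changed in diabetic WAT, which is 0.707% of all genes, and nearly all of them were higher. Signals of 136 genes rose (0.682%) and signals of 5 genes fell (0.0251%), as tested with limma at a Benjamini-Hochberg adjusted p under 0.10. At an unadjusted p under 0.05, 1504 genes (7.54%) were higher and 532 (2.67%) lower, and significance analysis of microarrays (SAM) at a false discovery rate of 10% called 562 genes (2.82%) higher and 6 lower. Of the 141, 37 differed by more than 2-fold. The median difference over all genes was 0.0076 on the log2 scale, and 52.1% of all genes had a positive difference. In 97 of the 141 changed genes the arrays of both groups did not overlap, a pattern seen in 1.49% of all genes (1.04% with STZ, BEZ higher). Of the 141, 60 lie in the 46 gene lists that were compared, and 45 of these belong to 7 mitochondrial lists, which hold 279 measured genes (16.1%).

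The number of changed genes rested on few arrays. Without any of STZ, BEZ replicates 1 to 4 it was 11 to 20, without STZ, BEZ replicate 5 it was 35, and without STZ, SD replicates 2, 3 or 4 it was 18, 44 and 14. It was 705 without STZ, SD replicate 1 and 383 without STZ, SD replicate 5. In 93 of the 136 risen genes STZ, SD replicate 1 had the highest signal of its group, so that this diabetic mouse lay closest to the treated ones. The lowest signal of the group was on STZ, SD replicate 6 in 65 and on replicate 4 in 41 of these genes. In these genes treated mice were more alike than untreated ones. The SD of the changed genes had a median of 0.12 in STZ, BEZ, 0.32 in STZ, SD and 0.22 in Con, SD, and 129 of the 141 had the larger SD in STZ, SD, as had 82.3% of all genes. With the mean of the white adipocyte list as a covariate, 5 of the 141 genes were called (Abcg1, Arxes1, Cox8b, Gpd1 and Ltc4s), and all 141 kept their sign. This list holds Gpd1 and itself differed between the groups (median 0.83), so the covariate also takes out difference shared with it. With the pancreas list as a covariate all 141 were called among 1973 genes. Without the arrays high in pancreas genes, STZ, BEZ replicate 5 alone was left of the treated mice, and all 141 kept their sign. In the 97 genes whose groups did not overlap, leaving out arrays could not have reversed it.

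Con, SD arrays give the level of these genes without diabetes. The risen genes had a median difference of -0.16 between STZ, SD and Con, SD and of 0.52 between STZ, BEZ and Con, SD, next to 0.72 between STZ, BEZ and STZ, SD. The 3 differences share arrays and are given side by side only.

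A set of 10 genes was called changed whichever of the 18 arrays was left out, and in all 10 every treated mouse lay above every untreated diabetic mouse. Cox8b, the muscle and brown fat form of a subunit of cytochrome c oxidase (respiratory complex IV), had log2 signals of 11.37, 11.06, 11.39, 10.78 and 10.47 in STZ, BEZ replicates 1 to 5. In STZ, SD it lay between 7.41 and 9.13 with a median of 8.07, and in Con, SD it averaged 8.99 ± 0.62 (SD, n = 7). All treated mice therefore exceeded all diabetic and all nondiabetic mice on standard diet, where Cox8b was 8.07 to 9.81. The rise was 2.86 (log2, SE 0.31, limma adjusted p = 7.93e-04), which is 7.27-fold.

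Of the other 9 genes, 5 handle lipids. Gpd1, the cytosolic enzyme that makes the glycerol backbone of triglycerides, was 12.56, 12.18, 12.26, 12.22 and 11.96 upon BEZ and 9.68 to 11.11 (median 10.23) in STZ, SD, a rise of 1.87 (SE 0.27, limma adjusted p = 0.00846). Its mean of 12.24 upon BEZ lay within the range of Con, SD, 10.86 to 12.31. Abcg1, a transporter that exports cholesterol from cells, was 9.17, 9.28, 9.02, 9.06 and 9.38 upon BEZ and 7.93 to 8.54 (median 8.21) in STZ, SD. It rose by 0.95 (SE 0.12, limma adjusted p = 0.00379) and also lay above all Con, SD arrays, the highest of which had 8.77. Lpcat3, which places polyunsaturated fatty acids into phospholipids, rose by 0.89 (SE 0.13, limma adjusted p = 0.00846), from a range of 10.12 to 10.76 to a range of 11.10 to 11.57. Ltc4s, the leukotriene C4 synthase, was 10.02, 9.93, 10.29, 10.23 and 10.03 upon BEZ against 7.05 to 8.90 (median 7.87) in STZ, SD, and rose by 2.11 (SE 0.30, limma adjusted p = 0.00846).

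Arxes1, a fat cell gene of the X chromosome that appears during adipocyte differentiation, was 8.70, 8.60, 8.70, 8.41 and 8.34 upon BEZ. The untreated diabetic mice spread from 4.82 to 7.25 (median 5.55), and the rise was 2.59 (SE 0.40, limma adjusted p = 0.0107). Its neighbour Arxes2 is a closely similar copy, so that both probe sets may share signal, and it rose by 1.71 (adjusted p = 0.0947) with groups that overlapped. Adam12, a membrane-bound metalloprotease, rose by 1.47, Reep6, a membrane protein of the endoplasmic reticulum, by 1.05, and Natd1 by 0.61 (limma adjusted p = 0.0107, 0.018 and 0.0107). The tenth gene, Hadha, belongs to fatty acid oxidation and is given there.

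**Figure D2:**
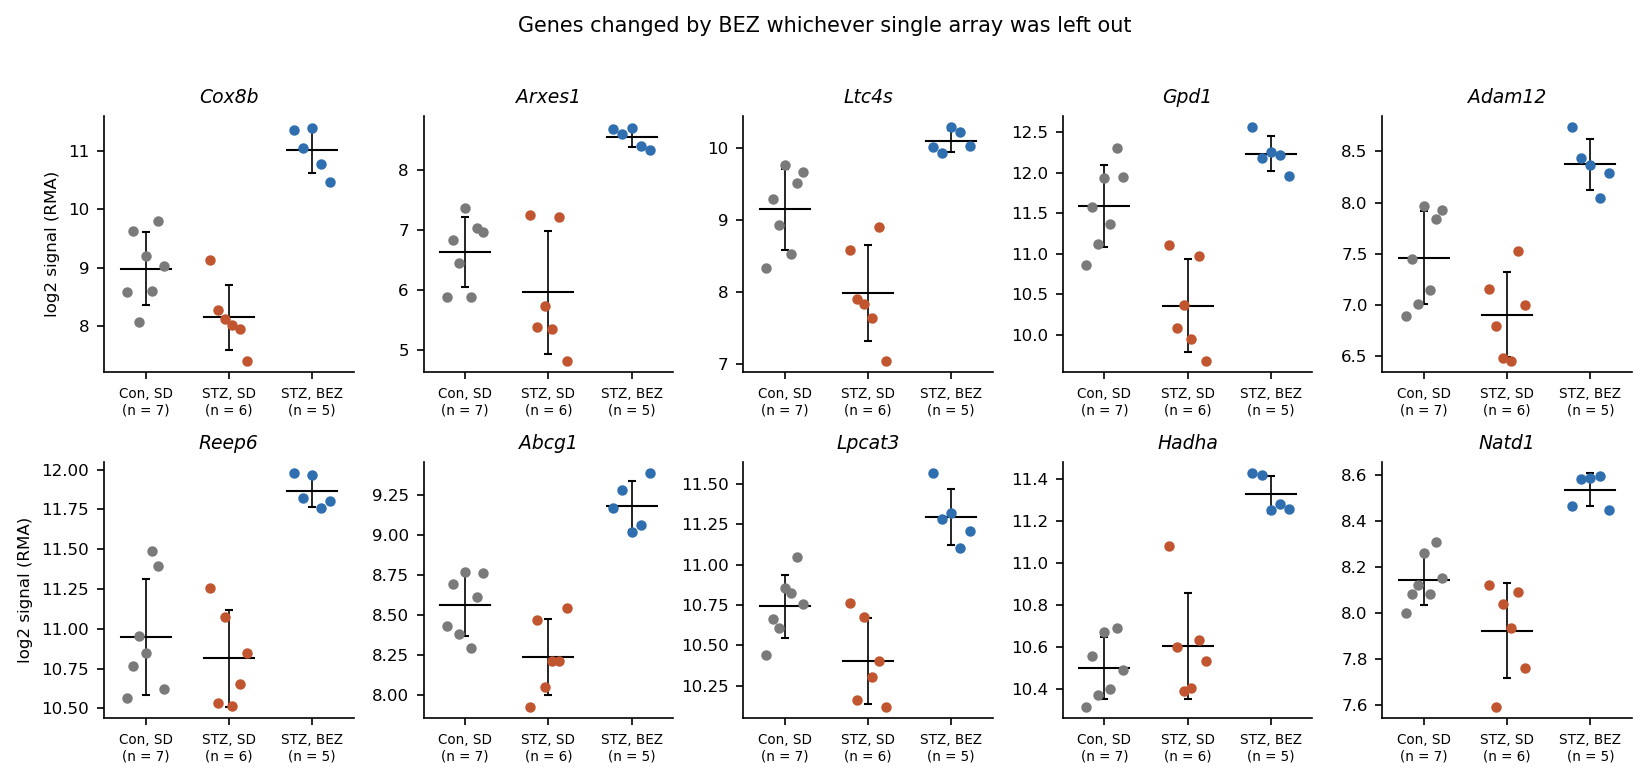
Log2 RMA signal of the 10 genes that stayed changed without each of the 18 arrays (points are mice, ordered by replicate number; line and bar are group mean and SD). In every panel the 5 STZ, BEZ mice lie above the 6 STZ, SD mice; Cox8b averaged 11.01 and 8.15.

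Genes of mitochondrial fatty acid oxidation were among those that rose upon BEZ. Of 22 measured genes 8 rose (36.4%), 0 fell and all 22 had a positive difference, with a median of 0.71. Across all genes 0.682% rose and 52.1% had a positive difference. The genes cover the path from the carnitine shuttle to the last step of the spiral. Slc25a20, which carries acylcarnitine through the inner membrane, rose by 1.21 (limma adjusted p = 0.0642) and Cpt2, which hands the acyl group back to coenzyme A, by 1.05 (adjusted p = 0.0673). Cpt1a, the entry enzyme of the outer membrane in many tissues, differed by 0.12 (adjusted p = 0.817) and is one of the 14 that did not pass. The dehydrogenases of very long and short chains, Acadvl and Acads, rose by 1.07 and 1.24 (adjusted p = 0.0354 and 0.0594). The hydroxyacyl dehydrogenase Hadh rose by 0.73 (adjusted p = 0.0641) and the thiolase Acaa2 by 0.51 (adjusted p = 0.0858).

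Both subunits of the trifunctional protein, which performs the last 3 steps on long chains, rose. Hadha was 11.43, 11.42, 11.25, 11.28 and 11.26 upon BEZ. In STZ, SD it was 10.39 to 10.63 on replicates 2 to 6 and 11.08 on replicate 1, still below each treated mouse. The rise was 0.72 (SE 0.11, limma adjusted p = 0.0107), and Con, SD had 10.50 ± 0.15 (SD, n = 7). Hadhb rose by 0.90 (adjusted p = 0.0856). Acadvl showed the same order by array, with 9.76 to 10.09 upon BEZ, 9.61 on STZ, SD replicate 1 and 8.33 to 9.09 on the other STZ, SD arrays. The list held 2 calls without STZ, BEZ replicate 5, and 6 without STZ, SD replicate 6, and its median was 0.29 with the white adipocyte covariate.

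Classical fibrate-responsive PPAR target genes had positive differences in nearly all members. Of 39 measured genes 11 rose (28.2%, next to 0.682% of all genes) and 0 fell. A positive difference was seen in 37, next to 52.1% of all genes, and the median was 0.80. The 6 members shared with fatty acid oxidation were given above. Cidea, a lipid droplet protein typical of brown fat, was 8.72, 7.93, 8.72, 7.53 and 8.07 upon BEZ and 5.84 to 7.38 (median 6.37) in STZ, SD, a rise of 1.65 (SE 0.35, limma adjusted p = 0.0641) without overlap. Ucp3, a carrier of the inner membrane, rose by 1.49 (adjusted p = 0.0653), from 6.46 ± 0.73 (SD, n = 6) to 7.96 ± 0.11 (SD, n = 5), with 7.62 ± 0.60 (SD, n = 7) in Con, SD. Acot2, a mitochondrial thioesterase, and Plin5, a coat protein that ties droplets to mitochondria, rose by 0.94 and 0.52 (adjusted p = 0.0662 and 0.0594).

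The response of this list was not even over the treated mice. Its mean log2 signal was 9.63, 9.68, 9.63 and 9.68 on STZ, BEZ replicates 1 to 4 and 10.37 on replicate 5, the array with high liver genes, against 8.41 to 9.52 in STZ, SD. Acaa1b, a peroxisomal thiolase, was 8.12, 8.48, 8.08 and 8.61 on replicates 1 to 4 and 9.41 on replicate 5, with 7.01 to 7.85 (median 7.17) in STZ, SD, and rose by 1.28 (SE 0.23, limma adjusted p = 0.0403). Cyp4a14, an omega-hydroxylase and standard PPAR alpha target of liver, was 11.92 on STZ, BEZ replicate 5 and 5.18 to 5.51 on the other treated mice, next to 4.97 to 5.47 in STZ, SD. Its difference of 1.54 did not pass (adjusted p = 0.635) and was 0.23 without that array. The part of liver RNA in the values of this array was not tested. Without it the median of the list was 0.66, with 3 of 39 genes risen. With the white adipocyte covariate all 11 calls were lost and the median was 0.29.

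Some well-known targets did not pass. Pdk4, the kinase that shuts pyruvate dehydrogenase, was 9.98 to 11.09 upon BEZ and 8.31 to 10.07 in STZ, SD (difference 1.15, adjusted p = 0.166), and Angptl4, an inhibitor of lipoprotein lipase, differed by 0.80 (adjusted p = 0.362). Of the genes in the peroxisome list, 3 of 34 rose (8.82%, next to 0.682% of all genes). These were Acaa1b, the dienoyl-CoA isomerase Ech1 (0.68) and the racemase Amacr (0.39). The list median was 0.38 (0.05 with the white adipocyte covariate).

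Nuclear genes of the respiratory chain passed the threshold in complexes I, III, IV and V, and all of those that passed were higher upon BEZ. The chain passes electrons from NADH and succinate to oxygen and uses the proton gradient to make ATP. Of 79 measured genes 26 rose (32.9%, next to 0.682% of all genes) and 0 fell. A positive difference was seen in 77, next to 52.1% of all genes. In complex I, which takes electrons from NADH, 12 of 35 rose with a list median of 0.40, and in complexes II to V with cytochrome c 14 of 44 rose with a median of 0.42. Apart from Cox8b, the risen genes changed by 0.31 to 0.86. Cyc1, the cytochrome subunit of complex III, was 11.01, 10.86, 10.86, 10.81 and 10.82 upon BEZ and 9.55 to 10.56 (median 10.04) in STZ, SD, a rise of 0.84 (SE 0.14, limma adjusted p = 0.0254). Cycs, the electron carrier cytochrome c, rose by 0.52 (adjusted p = 0.0286), and its 5 values upon BEZ, 12.30 to 12.69, lay above those of STZ, SD, 11.90 to 12.21.

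In complex I the accessory subunits Ndufb5, Ndufb8, Ndufb9 and Ndufc1 rose by 0.40, 0.86, 0.53 and 0.68 (limma adjusted p = 0.0526, 0.0594, 0.0621 and 0.0641). Of the ATP synthase, Atp5g3, which encodes the ring subunit, rose by 0.63 (adjusted p = 0.0653). None of the 4 subunits of complex II, succinate dehydrogenase, passed (differences of 0.41 to 0.48 for Sdha, Sdhb, Sdhc and Sdhd, adjusted p = 0.213 to 0.335). Their differences were close to the list medians of 0.40 and 0.42, and whether complexes differed from each other was not tested. Calls of the chain depended on single arrays. Without STZ, BEZ replicate 1 or 2, 1 and 2 genes of the chain were called. Without STZ, SD replicate 4 there were 3, without STZ, SD replicate 6 there were 20, and without STZ, SD replicate 1 there were 63. With the white adipocyte list as a covariate Cox8b alone was called, and the medians of both lists were 0.24 and 0.27.

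**Figure D3:**
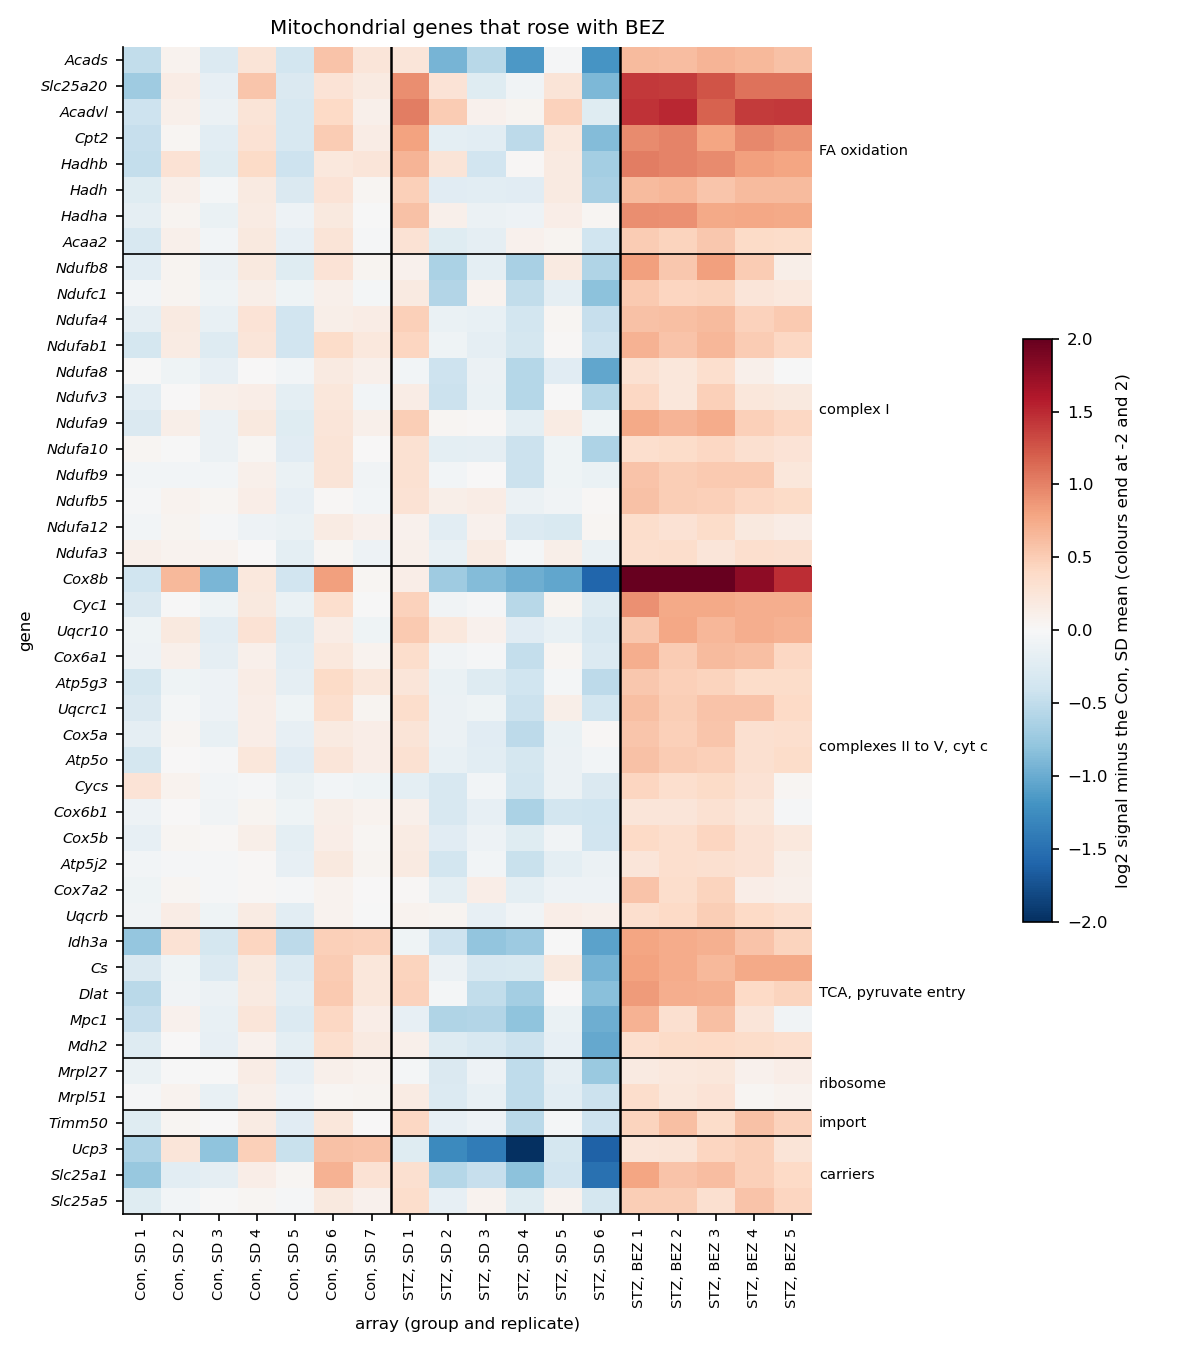
Log2 signal of the 45 mitochondrial genes that rose, as the deviation from the Con, SD mean, in all 18 arrays (columns, by group and replicate; colours end at -2 and 2). STZ, BEZ columns are above the Con, SD mean in nearly all rows, STZ, SD replicate 1 is the untreated diabetic mouse closest to them, and Cox8b has the largest deviation.

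Several subunits of complex IV exist in a common form and in a form of heart, muscle and brown fat, and these pairs are shown beside each other. Cox8b rose by 2.86 and its common counterpart Cox8a differed by 0.48 (SE 0.13, adjusted p = 0.141). Cox6a1 rose by 0.65 (SE 0.12, adjusted p = 0.0501) while the muscle form Cox6a2 had 7.34 in both group means. Cox7a2 rose by 0.39 (adjusted p = 0.0671), and the muscle form Cox7a1 differed by 0.85 (SE 0.27, adjusted p = 0.247). Upon BEZ Cox7a1 was 8.55 and 8.73 on replicates 1 and 3, 7.59 and 7.49 on replicates 2 and 4, and 6.83 on replicate 5, with 6.63 to 7.34 in STZ, SD. The common form Cox4i1 and the lung form Cox4i2 differed by 0.48 and 0.25 (adjusted p = 0.181 and 0.559). Whether the differences within a pair differ from each other was not tested. Of 16 skeletal muscle genes, 15 had a positive difference (median 0.24). Their mean was 6.56 to 7.05 on STZ, BEZ replicates 1 to 4, above the 6.24 to 6.41 of STZ, SD, and 6.21 on STZ, BEZ replicate 5. On STZ, BEZ replicate 5 this mean, Cox8b (10.47) and Cox7a1 (6.83) were all the lowest of the treated mice. The mean was highest on STZ, BEZ replicate 4 (7.05), and Cox8b and Cox7a1 were highest on replicate 3 (11.39 and 8.73). In Con, SD the muscle list was highest on replicate 1 (8.03), Cox8b on replicate 6 (9.81) and Cox7a1 on replicate 2 (8.29). Con, SD replicate 2 was next highest in the muscle list (7.56) and in Cox8b (9.63). The part of muscle RNA in these differences was not tested.

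**Figure D4:**
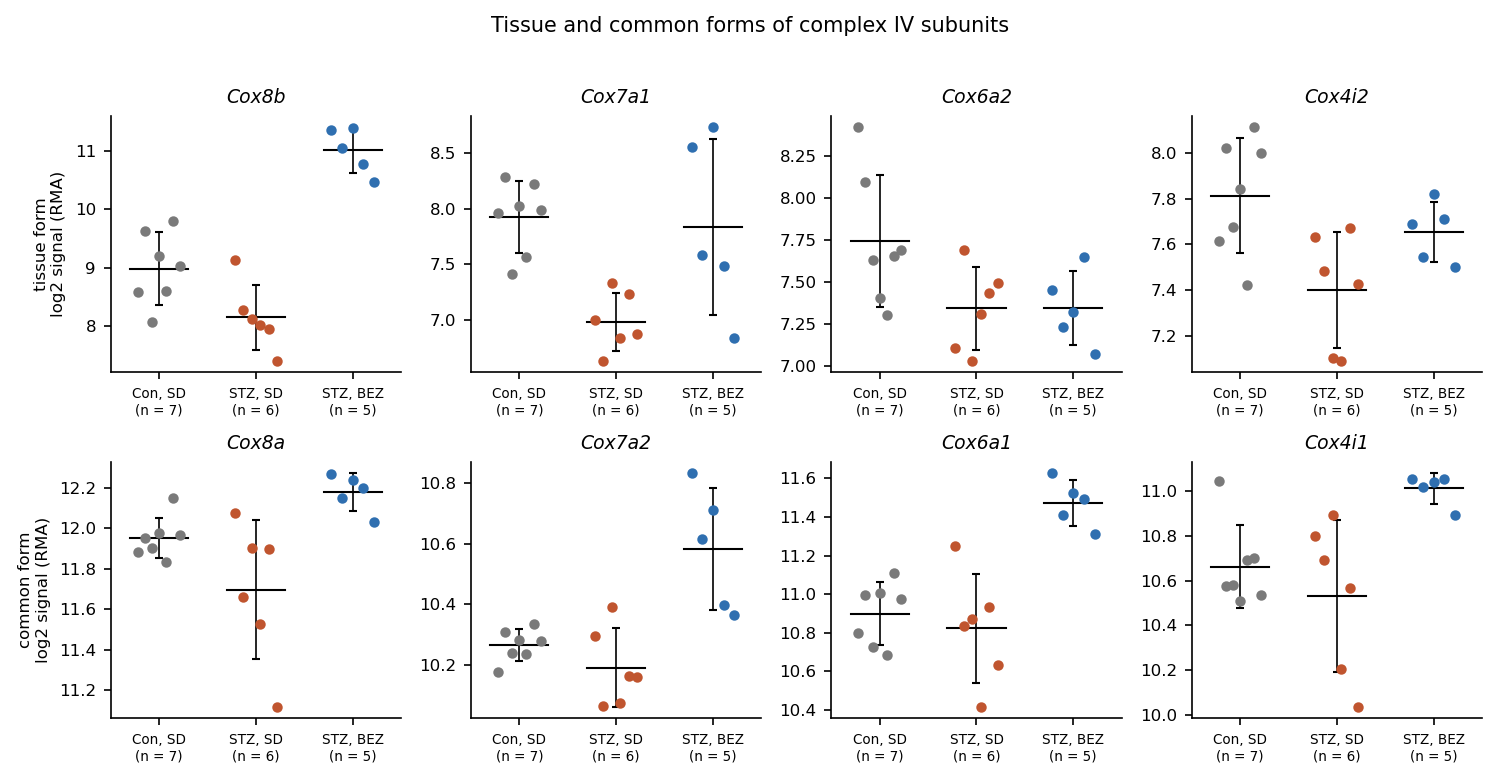
Log2 RMA signal of 4 tissue forms (upper row) and their common forms (lower row) of complex IV subunits on every array, with group mean and SD. The 5 STZ, BEZ mice stand apart from the other 13 in Cox8b, whereas Cox6a2 overlaps in all groups.

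Cox8b and Cidea are also markers of brown and beige fat, and the list of such genes was read as a whole. Of 31 measured genes 4 rose (12.9%), Cox8b, Cidea, Plin5 and Acot2, 0 fell and 20 had a positive difference, with a median of 0.31. Across all genes 0.682% rose and 52.1% had a positive difference. Without STZ, BEZ replicate 5 the list held 1 call and a median of 0.17, and with the white adipocyte covariate 1 call and a median of 0.19. Ucp1, the uncoupling protein that defines brown fat, was 6.31, 5.52, 5.93, 5.51 and 5.28 upon BEZ and 5.16 to 5.47 in STZ, SD, so that the groups overlapped (difference 0.42, SE 0.29, adjusted p = 0.694). Con, SD spanned 5.04 to 7.24. Dio2, which activates thyroid hormone, and Prdm16, a regulator of brown fat identity, differed by 0.06 and -0.17 (adjusted p = 0.883 and 0.638). Elovl3, an elongase induced by cold in brown fat, was 9.13 on STZ, BEZ replicate 5 and 5.98 to 7.77 on the other treated mice, against 4.57 to 7.61 in STZ, SD (difference 1.56, adjusted p = 0.304).

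Elements of known regulators of mitochondrial genes were looked for. The promoters of Cox8b and of 2 further risen respiratory chain genes, which do hold such elements, are shown. The sequences are the 250 bases before the annotated start in RefSeq (GRCm38.p6), and capitals mark the element found.
Cox8b, chr7:140900447-140900696, minus strand: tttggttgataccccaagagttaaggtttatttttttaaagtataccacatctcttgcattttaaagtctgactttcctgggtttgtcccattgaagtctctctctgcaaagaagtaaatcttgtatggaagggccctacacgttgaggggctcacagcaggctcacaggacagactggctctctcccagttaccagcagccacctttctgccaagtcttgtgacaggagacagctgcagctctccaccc
Atp5g3, chr2:73911327-73911576, minus strand: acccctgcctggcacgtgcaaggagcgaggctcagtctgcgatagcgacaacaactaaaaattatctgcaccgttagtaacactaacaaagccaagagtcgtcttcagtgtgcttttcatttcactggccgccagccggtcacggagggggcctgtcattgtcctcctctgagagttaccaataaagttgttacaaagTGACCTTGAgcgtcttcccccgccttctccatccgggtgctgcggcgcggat
Cox6a1, chr5:115348959-115349208, minus strand: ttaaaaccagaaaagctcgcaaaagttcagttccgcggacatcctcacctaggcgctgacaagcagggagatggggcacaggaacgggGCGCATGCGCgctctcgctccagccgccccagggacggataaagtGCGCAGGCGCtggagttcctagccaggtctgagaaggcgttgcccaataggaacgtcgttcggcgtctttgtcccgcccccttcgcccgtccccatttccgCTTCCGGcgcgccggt
Cox8b held none of the 4 elements. Atp5g3 held the element of estrogen-related receptors, TCAAGGTCA, on the reverse strand. Cox6a1 held 2 copies of the nuclear respiratory factor 1 element (GCGCA, any base, GCGC) and, on the reverse strand, the ETS factor element CCGGAAG.

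Over all risen genes, 102 were matched to a promoter, and both strands were searched. A direct repeat of AGGNCA spaced by 1 base, the shape of a PPAR element, was in 0 of the 102 and in 0.373% of the 15563 measured genes with a promoter, which says only that these letters were absent from this window. TCAAGGTCA was in 1 (0.98%; 0.334% of measured genes), the nuclear respiratory factor 1 element in 6 (5.88%; 6.43%) and CCGGAAG in 20 (19.6%; 10.7%). Of the 23 risen respiratory chain genes with a promoter, 1 held TCAAGGTCA (4.35%), 2 the nuclear respiratory factor 1 element (8.7%) and 2 CCGGAAG (8.7%). The last 3 elements were chosen after the changed genes were known.

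The tricarboxylic acid cycle and the entry of pyruvate also held risen genes. Of 30 measured genes 5 rose (16.7%, next to 0.682% of all genes) and 0 fell. A positive difference was seen in 28, next to 52.1% of all genes, and the median was 0.54. Cs, the citrate synthase that opens the cycle, was 12.26, 12.20, 12.12, 12.22 and 12.22 upon BEZ, while the untreated mice were spread from 10.53 to 11.91 (median 11.26). It rose by 0.92 (SE 0.20, limma adjusted p = 0.0653). Idh3a of isocitrate dehydrogenase and Mdh2, the malate dehydrogenase, rose by 1.17 and 0.71 (adjusted p = 0.0621 and 0.0653), and Mpc1, the pyruvate carrier, and Dlat, a core enzyme of pyruvate dehydrogenase, both by 0.90 (adjusted p = 0.0621 and 0.0908). Fh1, the fumarase, differed by 0.71 (adjusted p = 0.149). The list held 1 call without STZ, BEZ replicate 5, and with the white adipocyte covariate all 5 calls were lost and its median was 0.21.

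Ribosome, import and carrier genes of mitochondria held 7 calls. All 74 measured genes of the mitochondrial ribosome had a positive difference, but the median was 0.26 and 2 rose, Mrpl27 by 0.48 and Mrpl51 by 0.42. Of 42 genes of import, folding and biogenesis control 1 rose, the import channel gene Timm50 (0.63). Among 37 carriers 4 rose: Ucp3, Slc25a20, the citrate carrier Slc25a1 (1.14) and the ADP/ATP carrier Slc25a5 (0.51). The shares of 2.7%, 2.38% and 10.8% stand beside 0.682% of all genes. All 7 calls were lost without STZ, BEZ replicate 5 and with the white adipocyte covariate, where the medians of the ribosome, import and carrier lists were 0.12, 0.07 and 0.07.

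Genes of fatty acid synthesis had a list median of 0.87, with 3 of 25 risen, 0 fallen and 14 higher at an unadjusted p under 0.05. The risen share was 12.0%, next to 0.682% of all genes, and 7.54% of all genes were higher unadjusted. Scd1, the desaturase that makes oleate, was 13.75, 13.65, 13.81, 13.65 and 13.52 upon BEZ and 13.53 to 13.68 in Con, SD. In STZ, SD it ran from 10.97 to 12.76 on 5 arrays and was 13.70 on replicate 5, so that this mouse overlapped with the treated ones. The rise upon BEZ was 1.65 (SE 0.34, limma adjusted p = 0.0621). Srebf1, the transcription factor of fatty acid synthesis genes, and Slc25a1 rose by 0.93 and 1.14 (adjusted p = 0.0765 for both). Fasn, the fatty acid synthase, differed by 1.62 with a wide spread, 11.64 to 13.18 upon BEZ and 9.32 to 12.14 in STZ, SD (adjusted p = 0.12). The 3 calls were lost without STZ, BEZ replicate 5, where the list median was 0.91. They were also lost with the white adipocyte covariate, where it was 0.24. In the sterol list limma called 0 of 22 (8 higher and 0 lower at an unadjusted p under 0.05, 4 by SAM).

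Genes of lipid storage and of the fat cell itself had large positive differences and few calls. Of 25 genes of lipolysis and lipid droplets 24 had a positive difference (median 0.75) and 3 rose (12.0%, next to 0.682% of all genes). The 3 were Cidea, Plin5 and Hcar2, the receptor by which ketone bodies restrain lipolysis (1.17, limma adjusted p = 0.0879). Of 23 white adipocyte genes all were positive (median 0.83) and Gpd1 rose. Without STZ, SD replicate 6 the medians of the white adipocyte and lipolysis lists were 0.54 and 0.53. Fabp5, a fatty acid carrier, and Gys2, a glycogen synthase, rose by 1.48 and 2.50 (adjusted p = 0.0765 and 0.0783). With the white adipocyte list as a covariate, which itself holds lipolysis genes such as Lipe and Pnpla2, the median of the lipolysis list was 0.01. Adipoq, the adiponectin gene, was 12.79 to 12.97 upon BEZ, and in STZ, SD it was 11.03 on replicate 6 and 12.20 to 12.88 on the others (difference 0.54, adjusted p = 0.48). Lep, the leptin gene, was 8.60 to 11.05 upon BEZ and 6.22 to 11.46 in STZ, SD (difference 1.66, SE 0.77, adjusted p = 0.479), with 12.15 ± 0.47 (SD, n = 7) in Con, SD.

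**Figure D5:**
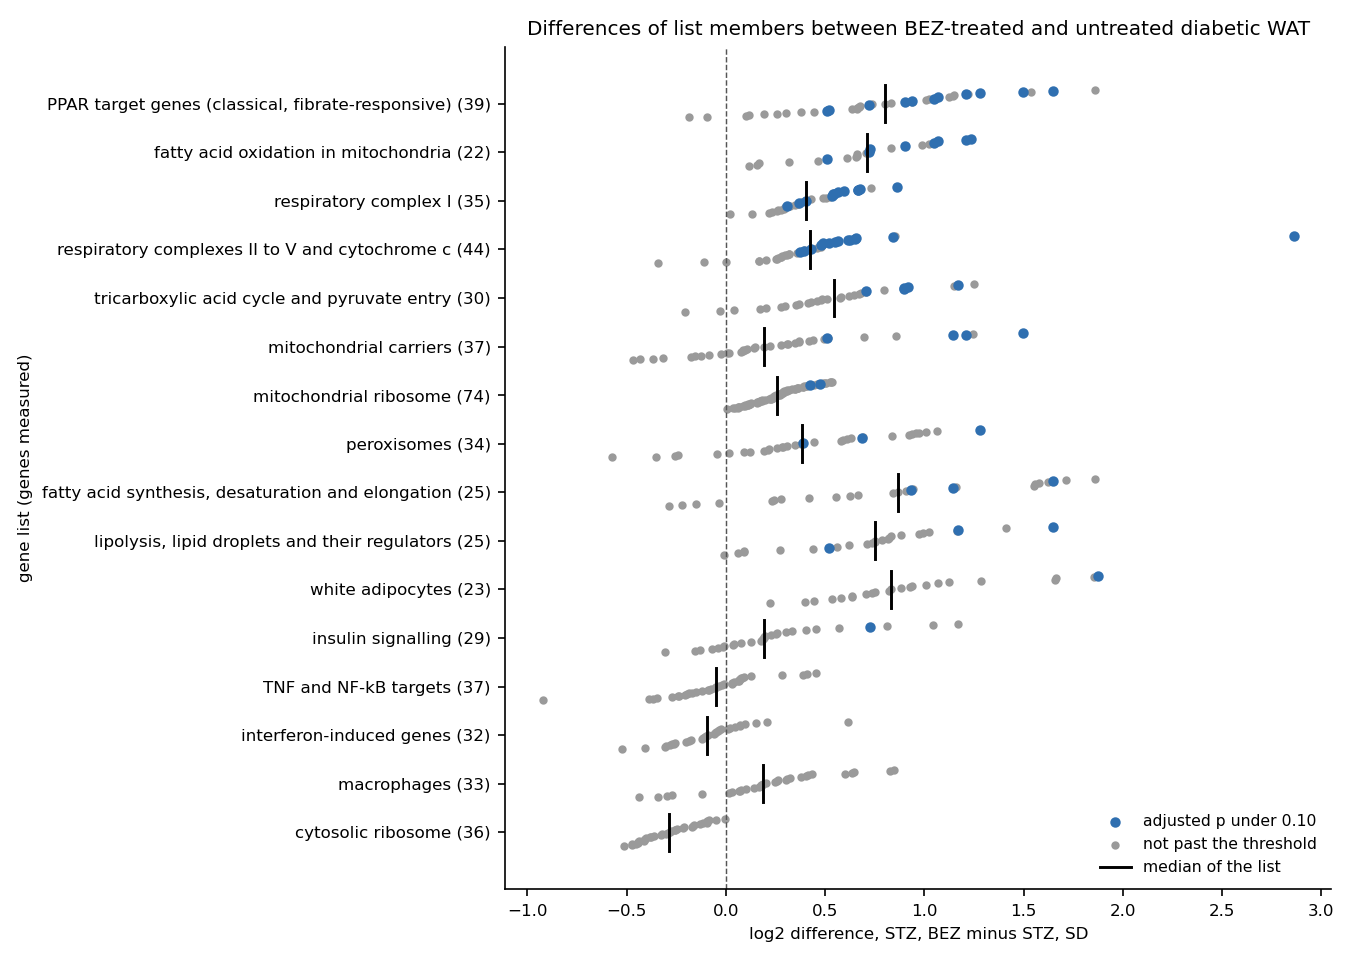
Log2 difference between STZ, BEZ and STZ, SD for each measured gene of 16 lists (number of genes in parentheses), with changed genes in blue and the list median as a bar. Members of the fatty acid oxidation list and of the white adipocyte list all lie right of 0, and those of the cytosolic ribosome list, with a median of -0.29, lie left of it.

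Transcripts of 19 regulators of lipid metabolism, insulin action and inflammation were followed. Of these 1 rose, Srebf1, and 0 fell (5 higher and 0 lower at an unadjusted p under 0.05, 1 by SAM), with differences of -0.17 to 1.66. Ppara was 7.91 to 8.43 upon BEZ and 7.17 to 8.14 in STZ, SD (difference 0.48, adjusted p = 0.32). Pparg, the fat cell form, was 11.77 to 11.87 upon BEZ and 9.17 to 11.93 in STZ, SD, where replicates 6 and 3 were low (difference 0.70, adjusted p = 0.597). Ppargc1a, the coactivator of mitochondrial biogenesis, averaged 8.79 ± 0.20 (SD, n = 5) upon BEZ, 8.48 ± 0.46 (SD, n = 6) in STZ, SD and 7.21 ± 0.27 (SD, n = 7) in Con, SD (difference upon BEZ 0.32, adjusted p = 0.626). Insig1 and Irs1 differed by 0.73 and 0.40 (adjusted p = 0.479 and 0.759). Of 29 insulin signalling genes 1 rose (3.45%, next to 0.682% of all genes), the kinase gene Akt2 (0.72, adjusted p = 0.0972).

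Lists of inflammatory genes had small median differences. Tnf, Il1b and Ifng differed by 0.08, -0.17 and -0.04 (SE 0.15, 0.11 and 0.06; limma adjusted p = 0.919, 0.657 and 0.895). Il1b was 5.36 to 6.09 and Ifng 5.66 to 6.06 over all 18 arrays, below the array medians of 6.76 to 6.87. At such low signals their small differences cannot show whether these 2 genes stayed the same. Of 37 targets of TNF and NF-kB limma called 0 (1 higher and 2 lower at an unadjusted p under 0.05, 1 by SAM), with a median of -0.05. Of 32 interferon-induced genes it called 0 (0 higher and 2 lower unadjusted, 0 by SAM), with a median of -0.10. The GTPase gene Irgm1 was 8.32 to 8.65 upon BEZ and 8.48 to 9.04 in STZ, SD, a difference of -0.31 (adjusted p = 0.394), and Usp18, a brake on interferon signalling, differed by -0.28 (adjusted p = 0.402). Of 33 macrophage genes 0 were called (5 higher and 1 lower unadjusted, 1 by SAM), with a median of 0.19. The 2 of lowest p, Folr2 and Retnla, differed by 0.83 and 0.85 (limma adjusted p = 0.24 and 0.338), with groups that overlapped. T, NK and B cell genes had 0 limma calls of 29 (0 unadjusted in either direction, 0 by SAM). Of 41 extracellular matrix genes limma also called 0 (6 higher and 0 lower unadjusted, 1 by SAM), with a median of 0.16. Breakdown of branched-chain amino acids, a mitochondrial pathway of fat cells, had 0 limma calls of 25 (12 higher and 0 lower unadjusted, 3 by SAM) and a median of 0.37. With the white adipocyte covariate the medians of the interferon, macrophage and matrix lists were -0.29, -0.07 and -0.23, so that the last 2 turned negative.

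The 5 genes that fell changed little in size. Arrdc4, an alpha-arrestin that responds to glucose, was 8.06 to 8.24 upon BEZ and 8.44 to 9.03 in STZ, SD, and fell by 0.58 (SE 0.13, limma adjusted p = 0.0777). Dstn, which takes actin filaments apart, fell by 0.46 (adjusted p = 0.093). Denn2b, an exchange factor of small GTPases, was 8.01 to 8.35 upon BEZ and 8.50 to 8.78 in STZ, SD, and fell by 0.41 (adjusted p = 0.0526). Eny2, a subunit of a histone-modifying complex, and Lin7c, a scaffold of cell junctions, fell by 0.32 and 0.26 (adjusted p = 0.082 and 0.0765). Groups did not overlap in 4 of them, Eny2 being the exception, a pattern that 0.451% of all genes had in this direction. Without any of STZ, BEZ replicates 1 to 4, or without STZ, SD replicate 4, every gene that limma called was higher upon BEZ.

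Of the 81 changed genes in none of the lists 76 rose, and the largest rises among the named ones, next to those given above, were of varied function. Mtarc1, a reductase of the outer mitochondrial membrane, was 9.74, 8.39, 10.04, 7.87 and 8.67 upon BEZ and 6.45 to 7.79 (median 7.08) in STZ, SD, a rise of 1.87 (SE 0.45, limma adjusted p = 0.0946). Its treated mice varied more than its untreated ones, with no overlap. Paqr9, a membrane receptor of the progestin and adiponectin receptor family, was 7.98 to 9.58 upon BEZ and 6.31 to 7.43 in STZ, SD, and rose by 1.81 (SE 0.37, adjusted p = 0.0621). Both lay within the range of Con, SD upon BEZ apart from Mtarc1 on replicate 4 and Paqr9 on replicate 4, which were lower.

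Nat8l, which makes N-acetylaspartate from acetyl-CoA, was 8.59, 8.51, 8.26, 8.21 and 8.74 upon BEZ. In STZ, SD it was 6.51 to 7.15 on 5 arrays and 8.74 on replicate 1, so that this diabetic mouse had the level of the treated ones. The rise was 1.38 (SE 0.33, adjusted p = 0.0899). Aldh3b2, an aldehyde dehydrogenase, Negr1, a cell adhesion protein, and Pmepa1, an inhibitor of TGF-beta signalling, rose by 1.46, 1.42 and 1.35 (adjusted p = 0.0621, 0.0879 and 0.0774). Lrrc39, Nabp1 and Tmem120b, a membrane protein linked to fat cell differentiation, rose by 1.82, 1.53 and 1.43 (adjusted p = 0.0946, 0.0635 and 0.0653). Of 25 genes of leukotriene and prostaglandin synthesis 2 rose (8.0%, next to 0.682% of all genes), Ltc4s and Ptges2 (0.57, adjusted p = 0.0915).

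Transcripts of the cytosolic ribosome were lower upon BEZ in every measured member without passing the test. Limma called 0 of 36 (0 higher and 24 lower at an unadjusted p under 0.05, 0 by SAM), with a median of -0.29. Rpl4 was 10.64 to 10.96 upon BEZ and 10.77 to 11.71 in STZ, SD, with the highest signal on replicate 6 (difference -0.44, adjusted p = 0.158). Rps7 differed by -0.47 (adjusted p = 0.152). The list was higher by a median of 0.34 in STZ, SD than in Con, SD, which shares the STZ, SD arrays with the first difference, and its median was -0.06 with the white adipocyte covariate.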

How the data were processed

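Visceral WAT RNA of 18 mice was hybridised to Affymetrix Mouse Gene 1.0 ST arrays, 1 per mouse. The authors made the deposited log2 signals with RMA in Affymetrix Expression Console 1.2 (per the submitters' processing notes). RMA corrects background and forces equal distributions, so shifts common to most genes are removed. Array medians were 6.76 to 6.87, and no depth applies, so the number of arrays limits precision. Of 35556 probe sets 21789 had 1 symbol in the platform annotation, 1621 several and 12146 none. The probe set of highest mean over all arrays stood for each of 19938 genes.

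Groups came from sample titles. One limma 3.58.1 (R 4.3.3) fit over 18 arrays gave STZ, BEZ minus STZ, SD with Benjamini-Hochberg adjustment over all genes, and adjusted p under 0.10 was called. SAM with 100 permutations, other normalizations, filters, covariates and omitted arrays were alternatives. On simulated data limma recovered 85% and 97% of genes changed by 1 and 2 log2 units, and 24 of 206 calls were false. Whether these shares hold for the measured arrays, whose spread differed between groups, was not tested. Deviations of mice with the same replicate number correlated at -0.16 to 0.04, and those with different numbers at -0.45 to 0.39. These values cannot decide whether same numbers share a cage, litter or batch. Cage, litter and array batch are not given in the sources used here.

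Named genes were the 20 largest rises, up to 10 falls, the 10 of lowest p, up to 4 called (otherwise 2) members of each of 46 lists, 19 regulators and complex IV forms. Predicted genes were left out. Other named genes, Atp5g3 among them, were chosen after their values were seen. Genes and lists were chosen with earlier results of these data known. Promoters came from RefSeq (GRCm38.p6).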

Additional observations from a re-analysis of the deposited data

Results flagged for a closer look

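In 228 groups of 5 or 6 arrays, 22 arrays lay further from the rest of their group than Dixon's 95% limit allows, and chance flags about 1 in 20 groups. All values are log2 signals. STZ, SD replicate 1 was high in Hadha (11.08), Acaa1b (7.85) and Nat8l (8.74), 3 genes that rose upon BEZ. STZ, SD replicate 3 was low in Dio2 (5.18), replicate 5 low in Eny2 (9.30) and replicate 6 low in Adipoq (11.03).

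Of the treated mice, STZ, BEZ replicate 1 was high in Cyc1 (11.01) and replicate 4 low in Denn2b (8.01). STZ, BEZ replicate 5 was high in Cyp4a14 (11.92) and in Alb, the albumin gene of liver (12.75), and low in Cox4i1 (10.89), Ndufb9 (11.33) and Dio2 (5.18). Its mean over the PPAR target list was 10.37 and over the liver list 10.06.

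Genes of other organs and of lymphoid tissue were far out on STZ, SD replicate 6, with means of 13.28 over the pancreas list, 8.69 over islet hormones, 7.85 over T, NK and B cells and 9.35 over lymph node and spleen. Ctrb1, a digestive enzyme of pancreas, was 13.84 there and, at 6.59, low on STZ, BEZ replicate 5 beside 11.38 to 13.22 on the other treated mice. T, NK and B cell genes were also high on STZ, BEZ replicate 4 (6.67).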

How the results depend on the processing

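Of the alternatives, 12 kept the count of 141 changed genes within 1.5 times, among them quantile normalization and all probe sets. These 12 also included several fits without a Con, SD array, which enters only the spread, and the fit left with a single treated mouse. Under 23 others the count moved further. It was 17 at an adjusted p under 0.05, 89 with a fold of at least 1.5, 76 (75 higher, 1 lower) with array medians set to 0, 274 (251 higher, 23 lower) with dim genes left out, 378 (343 higher, 35 lower) with array weights, 568 (562 higher, 6 lower) by SAM, which called 140 of the 141, and 14 in a fit of the 11 arrays alone. It was 1973 (1321 higher, 652 lower) with the pancreas list as a covariate, 3488 (2179 higher, 1309 lower) with the pancreas, epididymis and liver lists, and 6 with the white adipocyte list. Leaving out 1 array gave 11 to 705, and 78 without Con, SD replicate 2. Without the arrays high in pancreas genes, a single treated mouse, replicate 5, remained, assumed to vary like the other groups. That array was also the one high in liver genes. All 141 kept their sign there, which was fixed in advance for the 97 whose groups did not overlap. The replicate block, in which same numbers need not mean paired mice (5 correlations of -0.16 to 0.04), left 2 genes on 18 arrays, Abcg1 and Cox8b, and 1 on 11 arrays. For the alternatives that moved the count the cause was not tested. Where groups did not overlap, leaving out arrays could not reverse a sign, and none of the 65 called genes in the text changed sign. Log2 differences of uncalled genes did: Cox7a1 (-0.17), Dio2 (-0.17), Lep (-0.0532), Tnf (-0.22) and Cox6a2 (-0.24) without the arrays high in pancreas genes, Pparg (-0.35), Adipoq (-0.16), Lep (-0.15) and Irs1 (-0.33) with the white adipocyte list, Tnf (-0.0436) and Cox6a2 (-0.0564) with the pancreas list, and Cox6a2 with 3 lists (-0.14) and array weights (-0.0198). Leaving out 1 array gave -0.0325 to 0.1736 for Tnf and -0.0749 to 0.0694 for Cox6a2.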
